A study of Homo sapiens with 27 samples.

Results

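The response of 501mel melanoma cells without TFEB to the drug Torin was described from 6 of the 27 libraries of the series, 3 labelled TFEB KO Torin and 3 labelled TFEB KO CTRL. 501mel is an established human melanoma cell line with a high level of MITF. The TFEB KO cells were grown with 10% FBS, in DMEM by the labels and in RPMI by the study's general methods for this kind of line, and kept for 12 h either in 250 nM Torin1 or as controls. They were set beside WT cells (Torin for 12 h against CTRL, for which the labels give no time), TFE3 KO cells and cells lacking both factors (DKO), the last 2 genotypes under the same treatments for 12 h. A further WT group in HBSS entered the fit for the spread between replicates and was compared only in the spike-in rows. The knockouts were made with Cas9 protein and guide RNA and grown from single cells, and 1 clone stands for each genotype, so that clone and genotype cannot be told apart. The libraries of a group are called triplicates, no source used here says whether they came from separate cultures, and the p-values measure only the spread between them, which may be technical.

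TFEB, TFE3 and MITF are closely related transcription factors of the MiT/TFE family. The kinase complex mTORC1, active when nutrients and growth factors are plentiful, phosphorylates TFEB and TFE3 and so keeps them in the cytoplasm. Torin blocks the catalytic site of mTOR in both of its complexes, which releases these factors to the nucleus, where they bind E-box sequences in genes of lysosomes and autophagy. mTORC1 also promotes protein synthesis, sterol and nucleotide synthesis and entry into the cell cycle, all of which can change without TFEB.

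One column of values stood under both WT HBSS replicate 3 and WT Torin replicate 1, the same in each of 13523 rows, and was left out of both groups, so that WT Torin has 2 libraries and 25 libraries entered the fit. The TFEB KO libraries held 4162120 to 5835942 reads in the table. Only 3′ ends were read, so a count does not grow with the length of a transcript. Levels are the deposited normalised values, which lie on the CPM scale (read counts relative to the size of the library), and 3 reads corresponded to 0.471 to 0.683. All 10 melanoma identity markers were in the table (MITF, SOX10, PMEL, MLANA, TYR, DCT, TYRP1, S100B, S100A1 and GPR143), and their summed level was 6130 to 6478 in TFEB KO CTRL and 7559 to 7638 in TFEB KO Torin. Of 18 markers of other cell types, 14 had no row, among them PTPRC (leukocytes), EPCAM (epithelium) and PECAM1 (endothelium). The 4 others (CD68, LUM, PDGFRA and COL1A1) summed to 38.3 to 56.8 in CTRL and 61.0 to 64.6 in Torin, of which CD68, also a lysosomal protein, made 35.3 to 59.5, and the part of such cells in any result was not tested.

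The edited site and the promoters of a few genes described further on are shown first. The TFEB guide is given because it places the lesion, with its PAM (the 3 bases that Cas9 requires) in capitals. It matched 1 site in hg38, chr6:41690831-41690850 on the minus strand, in exon 3 of the main transcript and in the coding sequence of 15 TFEB transcripts in GENCODE.
TFEB guide with PAM: agtacctgtccgagacctatGGG
The promoters that follow belong to genes of ER folding and of cell cycle entry that fell, and to a lysosomal gene that rose. They are RefSeq sequences on GRCh38.p14, printed 5′ to 3′ on the strand of the gene and ending just before the span of the gene in GENCODE. In HSPA5, XBP1 and GAA that span begins before the RefSeq start, so their stretches are shorter than the 250 bases searched. HSPA5 (chr9:125241383-125241593, minus strand) encodes the main chaperone of the endoplasmic reticulum (ER), and XBP1 (chr22:28800598-28800819, minus strand) a transcription factor of the unfolded protein response. Their capitals mark the ER stress response element, CCAAT and CCACG with 9 bases of any kind between them.
HSPA5 promoter: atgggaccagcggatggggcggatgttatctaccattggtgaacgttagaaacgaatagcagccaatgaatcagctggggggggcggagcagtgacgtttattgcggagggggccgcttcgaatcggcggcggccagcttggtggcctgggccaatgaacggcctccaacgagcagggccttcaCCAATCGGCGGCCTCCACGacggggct
XBP1 promoter: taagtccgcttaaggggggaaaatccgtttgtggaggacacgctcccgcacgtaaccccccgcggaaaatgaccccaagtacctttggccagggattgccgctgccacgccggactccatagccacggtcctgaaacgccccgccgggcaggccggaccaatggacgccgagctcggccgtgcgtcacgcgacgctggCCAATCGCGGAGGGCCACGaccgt
E2F1 (chr20:33686386-33686635, minus strand) encodes an activator of S phase genes, and its capitals mark 4 matches of the E2F motif TTTNNCGC on either strand, a pair of which overlap.
E2F1 promoter: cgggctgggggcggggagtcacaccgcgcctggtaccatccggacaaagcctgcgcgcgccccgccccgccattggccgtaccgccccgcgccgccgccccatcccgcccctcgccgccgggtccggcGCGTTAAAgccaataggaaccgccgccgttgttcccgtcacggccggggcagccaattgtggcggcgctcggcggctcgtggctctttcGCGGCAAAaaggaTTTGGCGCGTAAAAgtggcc
GAA (chr17:80101331-80101532, plus strand) encodes the lysosomal alpha-glucosidase, and its capitals mark the CLEAR box TCACGTGA, the palindrome that MiT/TFE proteins bind, of which a further match lies past the end of the printed stretch.
GAA promoter: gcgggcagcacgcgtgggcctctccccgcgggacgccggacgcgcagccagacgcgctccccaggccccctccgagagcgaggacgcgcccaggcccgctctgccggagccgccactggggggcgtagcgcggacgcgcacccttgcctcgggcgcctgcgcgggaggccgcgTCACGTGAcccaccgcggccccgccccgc

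Motifs were searched on both strands of the 250 bases before the start of 10371 tested genes. The ER stress response element occurred in 14 promoters (0.135%), in 7 of 35 promoters of the ER folding list, and in 5 of 167 promoters of genes called lower in TFEB KO with Torin (HSP90B1, CALR, XBP1, CRELD2 and HSPA5). It occurred in 0 of 300 promoters of genes called higher. The E2F motif occurred in 952 promoters (9.18%), in 16 of 46 of the DNA replication list (34.8%), in 5 of 11 of the E2F family (45.5%) and in 18 of 167 of the genes called lower (10.8%). The CLEAR box, which contains the E-box CACGTG, occurred in 181 promoters (1.75%), in 5 of 30 of the lysosomal list (LAMP1, GALNS, GAA, MCOLN1 and CTSA), in 6 of 300 of the genes called higher and in 3 of 167 of those called lower. In the 167 promoters of genes called lower, the sterol, amino-acid response and heat shock motifs occurred in 1, 1 and 0. Over all promoters their shares were 0.791%, 0.444% and 0.309%. TEAD occurred in 29 of 300 called higher (9.67%, against 9.4% of all) and the E-box in 35 (11.7%, against 9.1%). Within lists, the heat shock motif occurred in 4 of 28 heat shock promoters and TEAD in 5 of 17 of the invasive state. A match is a stretch of letters and not a measured binding site.

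The transcript of the edited gene was measured at its 3′ end, far from exon 3, so its level does not test the edit. TFEB (chr6:41683978-41736259) was at 0.911, 0.750 and 1.66 in the 3 TFEB KO CTRL libraries and at 3.45, 0.628 and 0.611 in the 3 Torin libraries, against means of 3.25 in WT CTRL and 4.95 in WT Torin. The TFEB KO groups overlapped, and replicate 1 alone was high with Torin. The fitted log2 change was 0.13 (limma, Benjamini-Hochberg adjusted p = 0.780) and depended on that library, being -0.35 without it. TFE3 was at 31.4, 26.99 and 22.7 in CTRL and at 18.3, 19.0 and 16.5 in Torin. Every Torin library lay below every CTRL library, with a log2 fold change of -0.56 (limma adjusted p = 0.00907). Over 15 alternative settings the TFE3 change ran from -0.67 to -0.45, and its adjusted p was not under 0.05 in all of them. MITF, at 713 ± 25.3 (SD, n = 3) in CTRL and 735 ± 26.3 (n = 3) in Torin, overlapped between the groups, with a log2 fold change of 0.04 (limma adjusted p = 0.606).

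The first question was which genes Torin changes in cells without TFEB. A gene was called when its log2 fold change on log2(value + 1) was at least 1 in either direction and its adjusted p was under 0.05 in limma. Of 12991 genes tested, 426 were called higher (3.28% of the genes tested) and 203 lower (1.56%). By the adjusted p alone, 2242 genes were higher (17.3%) and 2727 lower (21%). The median log2 fold change over all genes tested was 0.00, and in bulk libraries fewer cells expressing a gene and less RNA per cell cannot be told apart. Spike-in RNAs, which cells do not make, also differed between Torin and CTRL libraries, as given near the end. Whether these libraries were also prepared differently was not tested, and such a difference cannot be told apart from Torin.

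The 6 genes with the highest log2 fold change are given first. ANKRD1 (chr10:90912096-90921087), a target of the Hippo pathway coactivator YAP, was at 23.2, 23.99 and 18.9 in CTRL and at 111, 162 and 146 in Torin. The Torin libraries all lay far above the CTRL libraries, and the log2 fold change was 2.60 ± 0.21 (SE, limma adjusted p = 2.2e-14). BBC3 (chr19:47220822-47232766), which encodes the pro-apoptotic protein PUMA, was at 36.0, 31.5 and 29.2 in CTRL and at 157, 168 and 146 in Torin. The groups did not overlap and the log2 fold change was 2.25 ± 0.10 (SE, limma adjusted p = 2.6e-24).

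The other genes with the highest changes were less abundant. ZC3H6, a zinc finger gene, was at 3.64, 3.75 and 5.97 in CTRL and at 24.1, 30.0 and 24.6 in Torin (log2 fold change 2.34). ADCK3, a kinase-like protein needed for coenzyme Q synthesis, was at 3.87, 7.12 and 6.96 in CTRL and at 32.9, 33.6 and 29.5 in Torin (2.28). LOC100131564, an uncharacterised transcript, was at 4.10, 7.31 and 4.31 in CTRL and at 29.0, 28.4 and 37.5 in Torin (2.41). All Torin libraries lay above all CTRL libraries for these genes. ANKRD20A5P, at 0.455, 0.562 and 2.32 in CTRL and 8.62, 9.42 and 16.3 in Torin, had the highest fitted change (2.61), but it is a pseudogene of a family of near-identical copies among which its reads may be split, and replicate 3 was high in both groups.

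The 6 genes with the lowest log2 fold change follow. SDF2L1 (chr22:21642302-21644299), a member of a chaperone complex of the ER, was at 426, 371 and 370.5 in CTRL and at 46.2, 49.5 and 42.1 in Torin. The groups were far apart, and the log2 fold change was -3.06 ± 0.09 (SE, limma adjusted p = 2.65e-30). HSPA5 was at 2337, 2156 and 1809 in CTRL and at 460.2, 469.7 and 377 in Torin, a log2 fold change of -2.27 ± 0.08 (SE, limma adjusted p = 1.58e-27). It was the most abundant of these genes in both groups, and its groups did not overlap.

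MANF, a secreted ER stress factor, was at 250.0, 269 and 261 in CTRL and at 54.7, 52.3 and 39.1 in Torin (log2 fold change -2.41). CRELD2, an ER stress-inducible disulphide isomerase, was at 219, 245 and 203 in CTRL and at 41.2, 44.6 and 50.3 in Torin (-2.27). CDK2AP2, a cell cycle regulator, was at 182, 162 and 146 in CTRL and at 43.97, 45.2 and 29.1 in Torin (-2.04). No library of one group reached the other for these genes. HSPA1B, an inducible cytosolic chaperone, was at 90.6, 81.9 and 90.0 in CTRL and at 11.6, 9.89 and 9.16 in Torin (-2.99), a value that is uncertain because its near-identical copy HSPA1A may share reads with it.

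**Figure D1:**
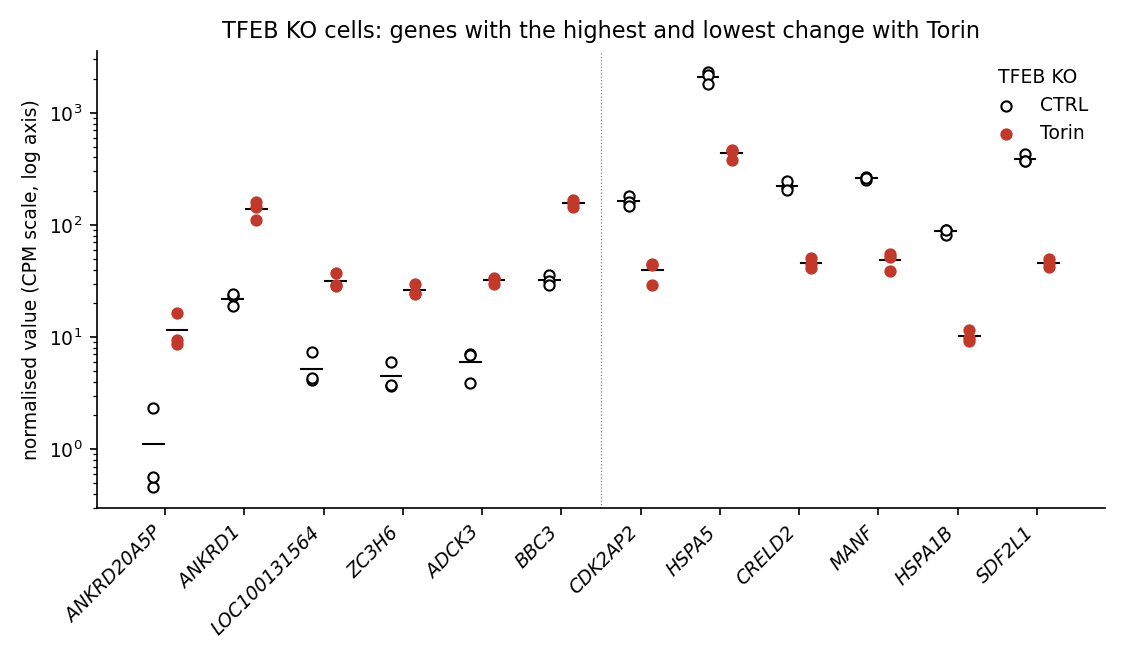
Normalised values (CPM scale, log axis) of the 6 genes with the highest and the 6 with the lowest log2 fold change with Torin in TFEB KO cells, 1 point per library (3 CTRL, open; 3 Torin, filled) and a bar at each group mean. The CTRL and Torin points do not overlap for any of the 12 genes, by the rule that chose them, and HSPA5 falls from a mean of 2101 to 436.

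The plot of these 12 genes gives their level in each library. The remaining description goes by gene list, giving for each the members called and the median log2 fold change, to be read beside the share of all genes called (3.28% higher, 1.56% lower) and the median of 0.00 over all genes tested. The lists hold 10 to 79 tested members that are not independent of each other.

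Genes of ER protein folding fell together. Of 38 tested members of the list of ER folding and the unfolded protein response, 14 were called lower and 0 higher, 36 were below 0, and the median was -0.75. Beside SDF2L1, MANF, CRELD2 and HSPA5 these were HYOU1 (-1.88), a large chaperone that works with HSPA5, DNAJB11 (-1.78), a cochaperone, PDIA4 (-1.66), PDIA3 (-1.18), PDIA6 (-1.17) and P4HB (-1.10), disulphide isomerases, CALR (-1.44), a lectin chaperone, SELK (-1.34), a selenoprotein, HSP90B1 (-1.14), the HSP90 of the ER, and XBP1 (-1.18). HYOU1 was at 229, 200.2 and 195 in CTRL and at 58.8, 57.3 and 51.5 in Torin. XBP1 was at 149.6, 168 and 132 in CTRL and at 63.6, 73.2 and 59.5 in Torin. For both genes the Torin libraries lay below all CTRL libraries. The sensor ATF6 (-0.12) and the cochaperone DNAJB9 (0.07) were not called, nor was HERPUD1 (-0.35), which acts in ER-associated degradation.

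Genes of sterol synthesis were below 0 in 26 of 26 tested members, of which 6 were called lower, with a median of -0.79. ACAT2, an acetyl-CoA acetyltransferase, was at 180.3, 185 and 179 in CTRL and at 55.0, 60.6 and 62.9 in Torin (log2 fold change -1.59). HMGCS1, which makes HMG-CoA, was at 749, 694 and 589 in CTRL and at 255, 250.0 and 274 in Torin (-1.37). The groups did not overlap for either gene. DHCR7 (-1.49), a sterol reductase, STARD4 (-1.09), a sterol carrier, and NSDHL (-1.08), a sterol dehydrogenase, also fell. Of 17 genes of fatty-acid synthesis 0 were called, with a median of -0.39 and the elongase ELOVL6 lowest (-0.86).

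Cytosolic chaperones and the proteasome moved the same way. Of 31 heat shock genes 6 were called lower (HSPA1B, DNAJB1, STIP1, DNAJA1, HSP90AA1 and HSPE1) and 1 higher (HSPA1L, a gene at most at 2.85 in any library), with a median of -0.73. DNAJB1, which stimulates HSP70, was at 349, 368 and 306 in CTRL and at 114, 107 and 114 in Torin (-1.60). STIP1, which links HSP70 and HSP90, was at 356, 347 and 321 in CTRL and at 134, 137 and 103 in Torin (-1.452). Torin libraries of both genes lay below the CTRL libraries by more than the spread within groups. Of 38 proteasome subunits 1 was called lower, PSMD14 (-1.16), the deubiquitinase of the lid, yet 28 were lower by adjusted p alone and 1 higher, and the median was -0.60.

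Genes of amino-acid supply fell in part. ASNS, asparagine synthetase, was at 64.9, 61.9 and 59.7 in CTRL and at 17.9, 21.2 and 18.9 in Torin, without overlap (log2 fold change -1.64, limma adjusted p = 2.28e-13). With ASNS, GPT2 (-1.18), a transaminase, PYCR1 (-1.04), which makes proline, and PSAT1 (-1.03), which makes serine, were the 4 of 21 genes called lower in the list of serine, one-carbon, asparagine and proline synthesis, whose median was -0.58. Of 20 cytosolic aminoacyl-tRNA synthetases, which charge tRNAs, WARS (-1.17), YARS (-1.05) and GARS (-1.03) were called lower, with a median of -0.43. In the list of the integrated stress response 4 of 25 genes were called lower, ASNS, VEGFA (-1.22), DDIT4 (-1.07) and CEBPG (-1.02), with a median of -0.22. The mRNA of ATF4, the transcription factor of this response, was not called (0.20). Of 19 amino-acid transporters 0 were called (median -0.17), with SLC1A5, a glutamine transporter, lowest (-0.90).

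Genes of cell cycle entry and DNA replication fell, whereas those of mitosis did not pass the threshold. Of 53 replication genes 13 were called lower and 0 higher, 46 were lower by adjusted p alone, and the median was -0.73. CDC6, which loads the replicative helicase, was at 112, 118 and 106 in CTRL and at 36.6, 32.4 and 35.4 in Torin (-1.65). MCM10, a helicase activator, was at 91.1, 90.9 and 79.6 in CTRL and at 27.8, 29.1 and 32.6 in Torin (-1.52). PCNA, the sliding clamp, was at 117, 109 and 147 in CTRL and at 51.7, 50.7 and 50.7 in Torin (-1.26). Every Torin library of these genes lay below every CTRL library. The other calls were FAM111B (-1.49), GINS2 (-1.41), FEN1 (-1.35), CLSPN (-1.31), RRM2 (-1.31), CHAF1A (-1.30), UHRF1 (-1.16), CDC45 (-1.13), GINS3 (-1.10) and POLA2 (-1.06).

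Of the 13 genes of the E2F and pocket protein family, E2F2 and E2F1 were called lower, with a median of -0.45. E2F1 was at 45.5, 39.7 and 37.1 in CTRL and at 13.97, 20.4 and 13.8 in Torin (-1.31). E2F2, a second activator, was at 47.6, 50.8 and 49.7 in CTRL and at 15.7, 16.6 and 10.4 in Torin (-1.75). Neither gene overlapped between the groups. The repressor E2F8 (0.07) and RB1 (-0.02), the pocket protein that restrains E2F, were not called. Among 16 genes of G1, CDC25A (-1.61), a phosphatase that activates CDK2, CCND3 (-1.56), a D-type cyclin, CCNE1 (-1.21) and CCNE2 (-1.14), E-type cyclins, fell, and CCNG2 (1.06), an atypical cyclin of quiescent cells, rose. CCND1 was not called (-0.04). Of 27 genes of homologous recombination and the Fanconi pathway, 5 were called lower, among them EXO1 (-1.24), XRCC3 (-1.15), FANCA (-1.04) and RAD54L (-1.03), with a median of -0.50. Of 46 mitotic genes 0 were called, 16 were lower and 5 higher by adjusted p alone, and the median was -0.10, from AURKA (-0.74) to CENPF, a kinetochore protein at 377 ± 14.5 in CTRL and 679 ± 24.8 in Torin (SD, n = 3; 0.85).

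Transcripts of the translation machinery were slightly higher. Of 79 cytosolic ribosomal protein genes 0 were called, but 71 were above 0, 37 were higher and 2 lower by adjusted p alone, and the median was 0.17. The largest change was in RPS25 (0.65), which spread from 262 to 449 in CTRL and from 454 to 644 in Torin, without overlap. The 25 translation factors with oligopyrimidine starts, whose translation mTORC1 controls, had 0 calls and a median of 0.20. Host transcripts of small nucleolar RNAs, which share this start and are degraded when translated, had 4 of 21 called higher and a median of 0.41. EPB41L4A-AS1 was at 28.9, 25.7 and 25.7 in CTRL and at 117, 110.1 and 119 in Torin (2.07). SNHG7 was at 83.1, 81.3 and 89.2 in CTRL and at 236, 248 and 239 in Torin (1.5). The libraries of each group were close to each other and far from the other group. SNHG20 (1.24) and GAS5 (1.11) were the remaining calls. Genes of ribosome biogenesis went the other way in median (-0.26 over 48 genes, 0 called, 26 lower by adjusted p alone), and TAF1D, a subunit of the RNA polymerase I selectivity factor whose gene also hosts small nucleolar RNAs, was highest (0.88).

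**Figure D2:**
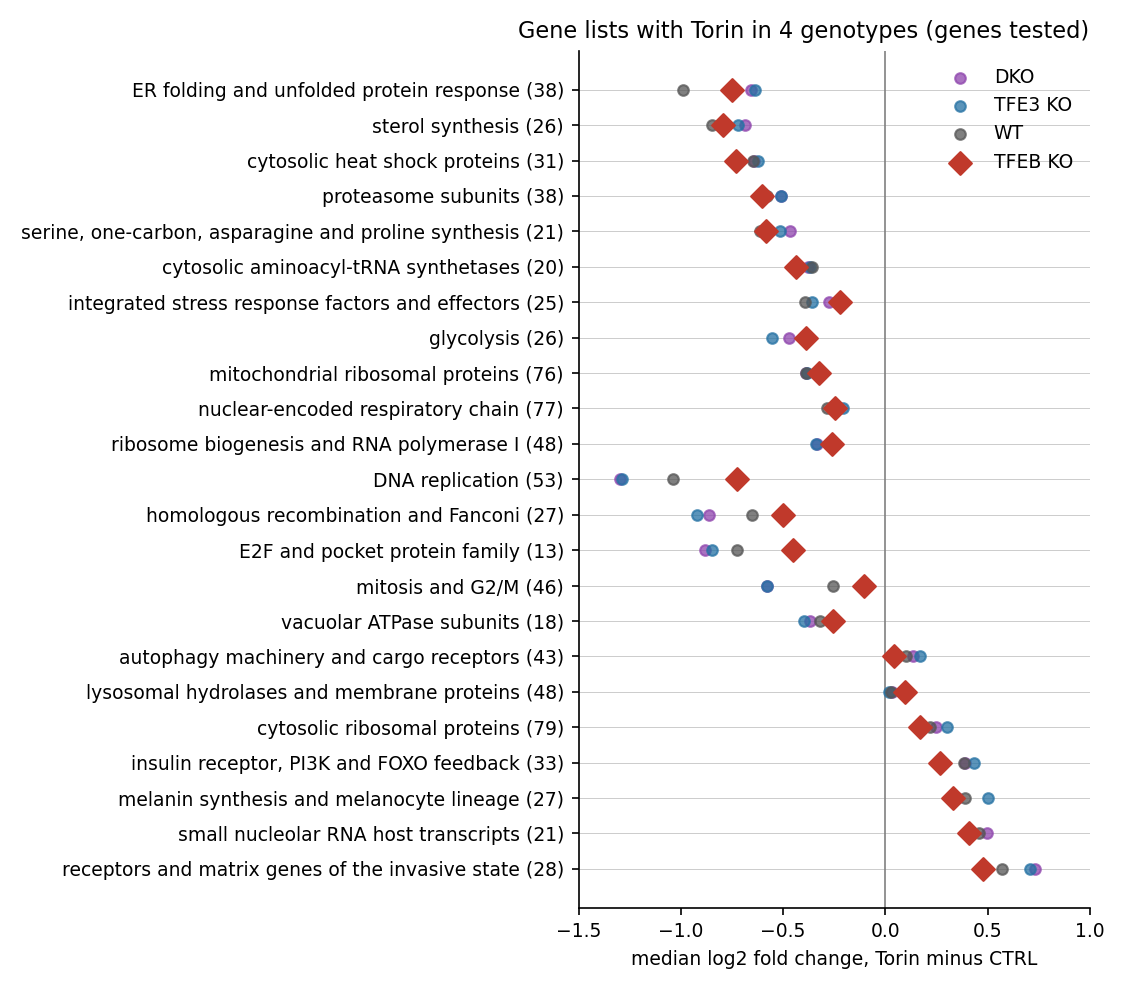
Median log2 fold change with Torin of 23 gene lists (number of tested genes in parentheses) in TFEB KO (diamonds), WT, TFE3 KO and DKO cells (circles). In TFEB KO cells sterol synthesis, ER folding and DNA replication lie near -0.8 to -0.7, the same side of 0 as in the other genotypes, and the DNA replication median of -0.73 lies nearer to 0 than the -1.04, -1.29 and -1.30 of the others.

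As the plot of list medians shows, genes of lysosomes and autophagy stayed near 0 in median. Of 48 lysosomal hydrolases and membrane proteins 4 were called higher and 0 lower, with 27 above 0 and a median of 0.10. In WT, TFE3 KO and DKO the lysosomal medians were also near 0, at 0.03, 0.02 and 0.03. There 4, 5 and 3 of these genes were called higher and 1, 0 and 0 lower. Over all genes tested, 5.57%, 6.84% and 6.68% were called higher in those genotypes and 3.92%, 4.62% and 4.22% lower. CTSF, a cathepsin, was at 26.9, 29.8 and 32.8 in CTRL and at 79.8, 87.0 and 70.2 in Torin (log2 fold change 1.38, limma adjusted p = 1.11e-13). GAA was at 5.01, 5.06 and 5.14 in CTRL and at 11.04, 11.9 and 12.4 in Torin (1.07). MANBA, a beta-mannosidase, was at 5.01, 3.37 and 10.8 in CTRL and at 15.3, 12.6 and 11.6 in Torin (1.06). The first pair separated cleanly, while in MANBA 1 CTRL library came close to the Torin libraries. CTSO was the remaining call, at most 2.25 in CTRL and at least 4.07 in Torin. MCOLN1, the lysosomal calcium channel with the CLEAR box, was not called (-0.04), nor were LAMP1 (-0.34) and CTSA (0.24).

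Subunits of the vacuolar ATPase, which acidifies lysosomes, had a median of -0.25, with 9 of 18 lower and 0 higher by adjusted p alone. ATP6V0B was at 344, 301 and 299.9 in CTRL and at 150.5, 131 and 136 in Torin, and was the 1 subunit called (-1.17). Of 43 autophagy genes 0 were called and the median was 0.04, beside 0.10, 0.17 and 0.14 in WT, TFE3 KO and DKO. In those genotypes 4, 6 and 3 autophagy genes were called higher and 0 lower. These counts stand beside 5.57%, 6.84% and 6.68% of all genes called higher there and 3.28% in TFEB KO. The cargo receptors NBR1 (0.98) and OPTN (0.95) were just under the threshold of size, while SQSTM1 (-0.45), another cargo receptor, was below 0. NBR1 was at 53.3, 59.0 and 59.4 in CTRL and at 107, 121 and 113 in Torin, with no overlap.

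Among 36 regulators of mTORC1, DEPTOR, an inhibitor of mTOR, was called higher and DDIT4, which restrains mTORC1 in stress, lower, with a median of -0.05. DEPTOR was at 2.50, 2.62 and 0.497 in CTRL and at 6.90, 6.12 and 4.28 in Torin. DDIT4 was at 69.7, 64.3 and 65.5 in CTRL and at 29.1, 30.8 and 33.8 in Torin (-1.07). Both separated between the groups, though DEPTOR rested on few reads. FLCN (-0.18), FNIP2 (0.07), RRAGC (-0.27) and RRAGD (0.33), of the pathway that presents TFEB to mTORC1, were not called.

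Receptor and insulin signalling genes had a median of 0.27 over 33 tested, with PIK3IP1, an inhibitor of PI3K, and ERBB2, a receptor tyrosine kinase, called higher and FOXO6 (-1.25), a forkhead factor, lower. ERBB2 was at 0.228, 0.562 and 0.332 in CTRL and at 3.10, 2.36 and 3.26 in Torin, and PIK3IP1 lay between 1.49 and 1.82 in CTRL and between 4.31 and 6.72 in Torin. Neither overlapped between groups, but both rest on few reads. IRS2, an adaptor of the insulin receptor, was at 326, 309 and 323 in CTRL and at 628, 620.5 and 618 in Torin, a log2 fold change of 0.96 that stayed under the threshold of size (limma adjusted p = 3.39e-16). In the MAPK output list MYC rose and DUSP5 (-1.26), an ERK phosphatase, fell, with a median of -0.00 over 26 genes.

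Melanocyte genes had a median of 0.33 over 27 tested, 2 called higher. OCA2, a melanosomal transporter, was at 20.04, 25.3 and 23.7 in CTRL and at 52.9, 56.5 and 55.6 in Torin (1.23). TFAP2A, a transcription factor of this lineage, was at 174, 196 and 214 in CTRL and at 453, 336 and 428 in Torin (1.05). Neither overlapped between groups. By adjusted p alone 16 members were higher and 2 lower. Tyrosinase (TYR), the first enzyme of melanin synthesis, was 1 of the lower pair (-0.26, limma adjusted p = 0.0079). Among 28 receptor and matrix genes of the invasive state 6 were called higher and 0 lower, with a median of 0.48. CTGF, a YAP target, was at 20.9, 25.1 and 20.1 in CTRL and at 72.8, 86.4 and 74.1 in Torin (1.78). FN1, fibronectin, was at 112, 94.7 and 92.3 in CTRL and at 288, 288 and 251 in Torin (1.46). The groups lay apart for both, and ANKRD1, AHNAK2 (1.39), CYR61 (1.27) and SNAI2 (1.10) were the other calls. AXL, a receptor of that state, was not called (0.05).

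In the BCL2 family BBC3 and BMF (1.79), pro-apoptotic proteins, rose and PMAIP1 (-1.33), which encodes NOXA, fell, with a median of 0.28 over 18 genes that turned to -0.03 with a minimum value of 5. PMAIP1 was at 15.9, 14.6 and 13.8 in CTRL and at 3.97, 5.81 and 6.31 in Torin. PMAIP1 and AEN (-1.21) were also the 2 of 29 p53 targets called lower, against BBC3 higher, and the median of -0.03 became 0.01 with median-of-ratios scaling. In the MYC network 5 of 19 genes were called higher, MYC, TXNIP, MXD3, MXD4 and ARRDC4, and 0 lower. MYC itself was at 4.55, 10.1 and 11.3 in CTRL and at 25.2, 23.1 and 27.3 in Torin (1.52). TXNIP, which limits glucose uptake, was at 58.3, 58.1 and 57.7 in CTRL and at 131, 141 and 139.5 in Torin (1.23). No library overlapped for these, and LDHA (-0.95) was lowest in that list.

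Genes of central metabolism were lower in median, except those of fatty-acid oxidation. ENO2 (-1.33), an enolase, and HK2 (-1.22), a hexokinase, were the 2 of 26 glycolytic genes called lower (median -0.39, 20 lower by adjusted p alone). In the hypoxia list VEGFA and P4HA2 (-1.06) fell and NDRG1 (1.35) rose, with a median of -0.39 over 24 genes. Of 77 nuclear-encoded respiratory chain genes CYCS (-1.11), cytochrome c, was the 1 called (median -0.25), and of 76 mitochondrial ribosomal proteins 0 were called (median -0.32), with MRPS6 lowest (-0.95). CTPS1 (-1.66), which makes CTP, and RRM2 fell among 24 genes of nucleotide synthesis (median -0.22). TFRC (-1.13), the transferrin receptor, was the 1 of 27 genes called in the list of NRF2, iron and ferroptosis (median -0.27). SLC27A1 (1.06) rose and SLC27A4 (-1.04) fell, both fatty-acid transporters, among 26 genes of fatty-acid oxidation (median 0.06). The remaining lists had 1 call each, IFI44L (at most 0.663 in CTRL and at least 2.24 in Torin) among 40 interferon and antigen presentation genes, H2AFX (-1.11) among 10 histone genes and FAM133A (1.03) among 14 cancer-testis antigens.

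The second question was whether the response without TFEB differs from that of WT, TFE3 KO and DKO cells. By the same calls Torin moved 724 genes higher (5.57%) and 509 lower (3.92%) in WT, 888 higher (6.84%) and 600 lower (4.62%) in TFE3 KO, and 868 higher (6.68%) and 548 lower (4.22%) in DKO, against the 3.28% and 1.56% of TFEB KO. The median absolute log2 fold change over all genes was 0.306 in TFEB KO, 0.380 in WT, 0.403 in TFE3 KO and 0.402 in DKO. WT had 2 Torin libraries and the others 3.

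Over the 724 genes called higher in WT, the median log2 difference from the mean of the own CTRL group was 0.90, 0.90 and 0.87 in the 3 TFEB KO Torin libraries, with a mean of 0.89 ± 0.02 (SD, n = 3). It was 1.20 ± 0.02 (n = 3) in TFE3 KO and 1.19 ± 0.04 (n = 3) in DKO. Over the 509 genes called lower in WT it was -0.83, -0.82 and -0.80 in TFEB KO, with a mean of -0.82 ± 0.01 (n = 3), and -1.19 ± 0.02 in TFE3 KO and -1.15 ± 0.03 in DKO (n = 3). No TFEB KO library reached a library of either other knockout in either direction. The differences were -0.31 and -0.30 for the genes called higher and 0.37 and 0.33 for those called lower. Each gave p = 0.1 in a 2-sided exact permutation test of 3 against 3 libraries (0.1 adjusted over 4 tests), which is the smallest p this design allows. The 3 values of a genotype share the mean of its CTRL group and are not independent. Their SD and this test leave out the spread of the CTRL libraries, so the test cannot decide whether the responses differ. WT chose these genes, so that its own 1.27 and 1.28 for the genes called higher and -1.20 and -1.22 for those called lower are a description.

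**Figure D3:**
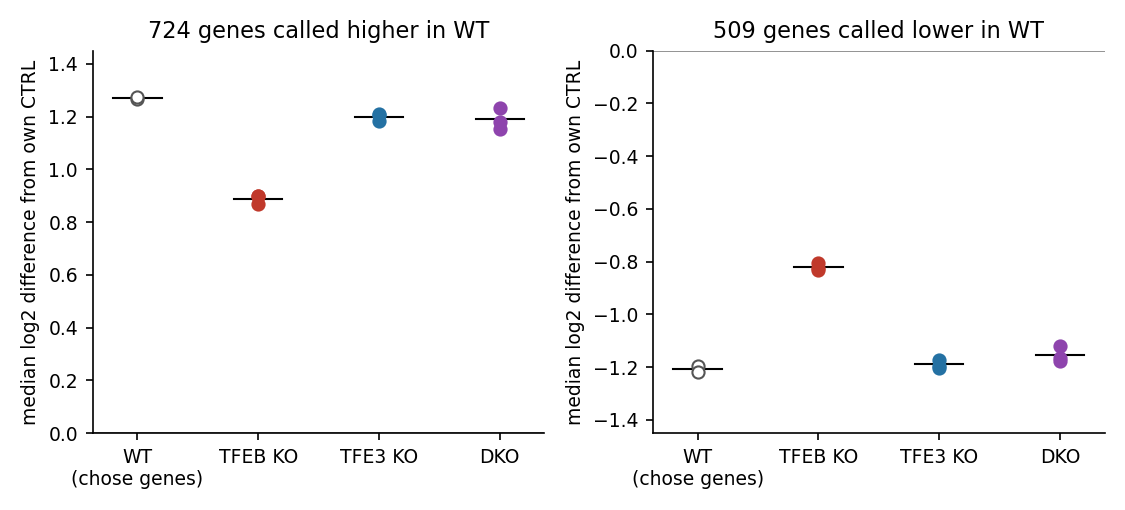
Median log2 difference of each Torin library from the mean of its own CTRL group, over the 724 genes called higher (left) and the 509 called lower (right) in WT, with 1 point per library and a bar at the mean. TFEB KO libraries lie at 0.87 to 0.90 and -0.83 to -0.80, nearer to 0 than every TFE3 KO and DKO library.

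The plot of response sizes sets these libraries side by side. Of the 426 genes called higher in TFEB KO, 268 were also called in WT (62.9% of the TFEB KO calls and 37.0% of the WT calls), 289 in TFE3 KO (67.8% and 32.5%), 307 in DKO (72.1% and 35.4%) and 211 in all 3 (49.5% of the TFEB KO calls and 54.8% of the 385 genes called in all 3 others). Of the 203 called lower, 150 were called in WT (73.9% and 29.5%), 144 in TFE3 KO (70.9% and 24%), 136 in DKO (67.0% and 24.8%) and 117 in all 3 (57.6% and 40.3% of 290). A further 64 genes were called higher in TFEB KO and in no other genotype, but only 8 of these were called in at least 1 test of the difference between responses (ANGPT2, CPNE5, ERVFRD-1, FAM133A, KLHL6, MXD3, SLC16A1-AS1 and ZDHHC11) and 0 in all 3. For the 34 called lower in TFEB KO and in no other genotype the count was 1 (VEGFA). Conversely, 174 genes called higher and 173 called lower in the 3 other genotypes were not called in TFEB KO, of which 20 and 30 were called in at least 1 test of the difference, SIDT2 and AMIGO2 in all 3.

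The difference between responses was tested as a contrast of the same limma fit, the Torin response of TFEB KO minus that of the other genotype, at the same thresholds. Against WT 15 genes were called higher (0.115%) and 12 lower (0.0924%), against TFE3 KO 90 higher (0.693%) and 90 lower (0.693%), and against DKO 60 higher (0.462%) and 56 lower (0.431%). The 3 tests share the TFEB KO libraries, and their calls are not independent of each other. Against TFE3 KO and DKO a higher value was mostly a smaller fall in TFEB KO. Of the 90 higher against TFE3 KO, 60 had the same sign and a smaller change in TFEB KO, 27 the opposite sign and 3 a larger change, and of the 90 lower these numbers were 55, 32 and 3. Of the 60 higher against DKO they were 39, 18 and 3, and of the 56 lower 29, 21 and 6. Against WT they were 7, 7 and 1 of 15 and 7, 5 and 0 of 12. The 27 calls against WT rest on single libraries more than the others, ranging from 14 to 41 with 1 library left out (10 to 21 higher and 1 to 20 lower) and being 1 when the column under 2 labels was kept as WT Torin.

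A difference of responses can lie in the CTRL or in the Torin level. Among the 90 genes lower against TFE3 KO, the CTRL levels of the 2 genotypes were further apart than their Torin levels in 56, and in 32 of the 56 against DKO. Among the genes higher this was so in 14 of 90 and 17 of 60. Against WT it was so in 4 of 12 lower and 1 of 15 higher.

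Replication genes carried differences in 1 direction. Against TFE3 KO 9 of 53 were higher in TFEB KO (MCM4, MCM10, GINS1, GINS4, ORC6, CLSPN, UHRF1, FAM111B and RRM2) and against DKO 7 (MCM10, CDC45, GINS1, GINS4, PCNA, CLSPN and FAM111B), with 0 lower in either. Against WT it was 1, RRM2. The log2 fold change was higher in TFEB KO than in TFE3 KO for 53 of 53 members, than in DKO for 51 and than in WT for 47. These counts were not made over all genes tested. A smaller fall was not particular to replication genes. Over all 509 genes called lower in WT, the mean of the library medians was -0.82 in TFEB KO, -1.19 in TFE3 KO and -1.15 in DKO. RRM2, the small subunit of ribonucleotide reductase, was at 204 ± 12.4 in CTRL and 82.1 ± 4.02 in Torin (SD, n = 3), against 242 ± 12.0 and 46.1 ± 2.14 in WT (n = 3 and n = 2). Its Torin response differed from that of WT by 1.06 ± 0.12 (SE, limma adjusted p = 5.18e-07) and from that of TFE3 KO by 1.10 (3.6e-09). In median over the 53 genes, TFEB KO CTRL was below WT, TFE3 KO and DKO CTRL by a log2 difference of -0.17, -0.27 and -0.24, and TFEB KO Torin above their Torin groups by 0.12, 0.32 and 0.28.

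E2F1 (difference 1.20) and E2F2 (difference 1.138) were called higher against TFE3 KO, and E2F2 (difference 1.44) also against DKO. The repressor E2F8, on few reads, was called higher against WT and DKO (limma adjusted p = 0.0301 and 0.00174), from CTRL means of 2.46, 3.97 and 5.21 in TFEB KO, WT and DKO to Torin means of 2.89, 0.586 and 0.631. CCNE2 was at 14.7 ± 2.25 in TFEB KO CTRL and 6.09 ± 0.722 in Torin (SD, n = 3), against 18.5 ± 3.19 and 1.30 ± 0.619 in TFE3 KO (n = 3). Its response differed by 1.96 ± 0.31 (SE, limma adjusted p = 1.81e-05). Recombination genes had medians of -0.65, -0.92 and -0.86 in WT, TFE3 KO and DKO against -0.50 in TFEB KO, with RMI1 called against TFE3 KO. Mitotic genes had medians of -0.26, -0.58 and -0.58 against -0.10, and 0 single genes were called in any of the 3 tests. TFEB KO was above TFE3 KO in 43 and above DKO in 46 of 46, counts that were not made over all genes tested.

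**Figure D4:**
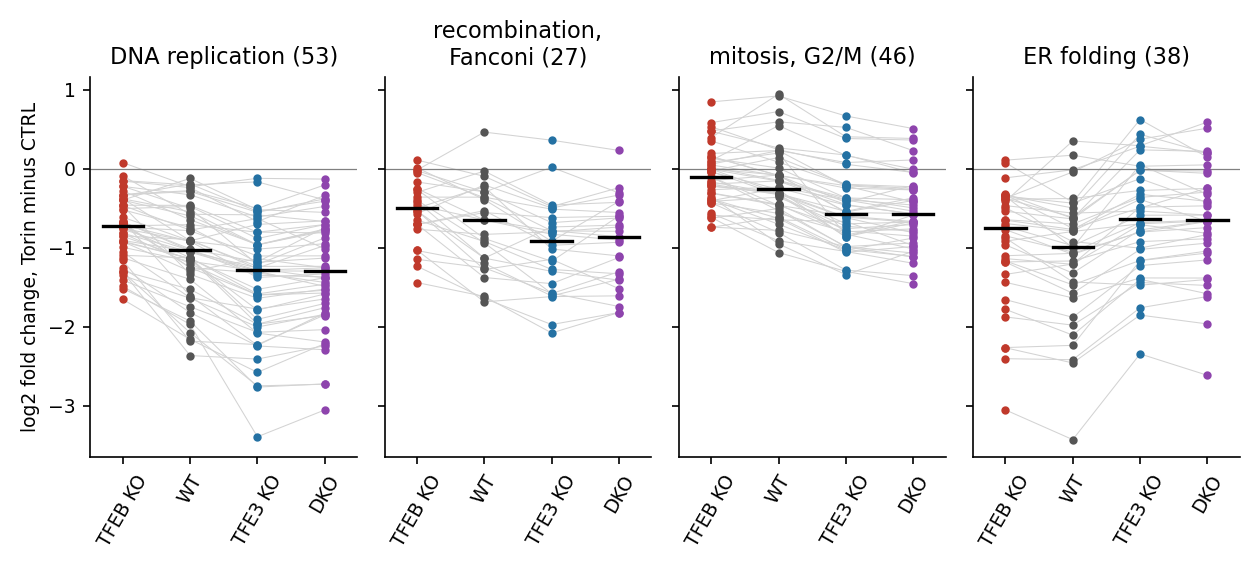
Log2 fold change with Torin of each tested member of 4 gene lists (53, 27, 46 and 38 genes) in TFEB KO, WT, TFE3 KO and DKO cells, with lines joining the same gene and bars at medians. In the 3 cell cycle lists the TFEB KO median is the highest of the 4 genotypes, and in ER folding the TFEB KO median of -0.75 lies between WT (-0.99) and TFE3 KO and DKO (-0.64 and -0.66).

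ER folding genes did not share this order, as the plot of list members shows. HSPA5 was called lower in TFEB KO against TFE3 KO by -1.10 ± 0.11 (SE, limma adjusted p = 1.54e-09) and against DKO by -1.20 ± 0.11 (3.06e-10). Its CTRL level was 2101 ± 268 (SD, n = 3) in TFEB KO, 1741 ± 33.8 in WT, 687 ± 28.8 in TFE3 KO and 747 ± 62.2 in DKO (n = 3 each). With Torin it was 436 ± 51.1, 368 ± 0.255 (n = 2), 306 ± 15.3 and 355 ± 25.2, so the genotypes were much closer to each other with Torin than without. ASNS had the same pattern, at 62.1 ± 2.62 in TFEB KO CTRL, 45.7 ± 0.486 in WT, 19.7 ± 4.73 in TFE3 KO and 20.47 ± 3.54 in DKO (n = 3 each), and at means of 19.4, 18.1, 15.5 and 15.3 with Torin. Its responses differed by -1.32 against TFE3 KO (limma adjusted p = 6.56e-06) and -1.24 against DKO (3.71e-05). VEGFA differed against DKO by -1.14 (limma adjusted p = 0.00111), from a CTRL mean of 21.4 in TFEB KO and 11.3 in DKO to Torin means of 8.79 and 10.6.

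In the sterol list TM7SF2, a sterol reductase, was called lower in TFEB KO against TFE3 KO (-1.02, limma adjusted p = 0.0248) and against DKO (-1.18, 0.0105). In the lysosomal list 1 of 48 genes was called in any test, GLA, the alpha-galactosidase, which fell in WT (-1.52) and was at -0.45 in TFEB KO (difference 1.07, limma adjusted p = 0.0204). Among autophagy genes OPTN was called lower against TFE3 KO (-1.12, limma adjusted p = 6.59e-06), with CTRL means of 34.2 and 13.5 and Torin means of 67.1 and 59.7. DEPTOR was lower against TFE3 KO (limma adjusted p = 0.0335), from means of 1.88 and 0.102 in CTRL to 5.77 and 6.45 in Torin. MXD4, a MYC antagonist, was lower against TFE3 KO too (-1.17, limma adjusted p = 6.67e-06). TFRC was higher against DKO (1.13, 1.48e-09), at 174 ± 11.5 with Torin in TFEB KO and 78.3 ± 5.24 in DKO (SD, n = 3 each).

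Genes called in all 3 tests of the difference were SIDT2, AMIGO2, NAT16 and SNORD13. SIDT2, a lysosomal membrane protein that takes up nucleic acids, was at 9.56, 11.8 and 7.96 in TFEB KO CTRL and at 9.66, 6.596 and 11 in Torin. These groups overlapped, whereas the means rose from 6.91 to 15.4 in WT, from 9.17 to 19.7 in TFE3 KO and from 7.29 to 15.9 in DKO. The differences were -1.16, -1.12 and -1.14 against WT, TFE3 KO and DKO (limma adjusted p = 0.0328, 0.00593 and 0.00728), and these calls were lost in 10, 3 and 1 of 21 alternatives. AMIGO2, an adhesion protein, was at 25.96, 22.3 and 22.7 in TFEB KO CTRL and at 18.3, 19.5 and 22.0 in Torin, while its mean fell from 28.9 to 10.0 in WT, from 22.6 to 5.33 in TFE3 KO and from 16.4 to 5.41 in DKO. The TFEB KO groups lay close together, the highest Torin library just under the lowest CTRL library. Here the differences were 1.22, 1.67 and 1.20 (limma adjusted p = 0.00562, 1.38e-06 and 0.000548), the first with an adjusted p of 0.0907 without WT Torin replicate 3.

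NAT16, an acetyltransferase gene, rose in TFEB KO from 13.7 ± 2.64 to 29.2 ± 5.29 (SD, n = 3 each), by less on the log2 scale than in WT (-1.04), TFE3 KO (-1.53) and DKO (-1.08), and the calls against WT and DKO were lost in 8 and 4 of 21 alternatives. SNORD13, a small nucleolar RNA, rose from 6.96 ± 1.19 to 35.8 ± 8.39 (n = 3 each), by less than in WT (-1.0), TFE3 KO (-1.49) and DKO (-1.29), and the difference from WT was lost in 11 of 21 alternatives. Polyadenylated RNA was sequenced, and whether the SNORD13 reads measure the small nucleolar RNA itself was not tested.

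Other genes differed in 1 or 2 tests. ATP1B1, a subunit of the sodium pump, was at 45.9 ± 4.03 in TFEB KO CTRL and 28.9 ± 3.97 in Torin (SD, n = 3 each), against 28.1 ± 2.15 and 4.71 ± 0.629 in WT (n = 3 and n = 2), a difference of 1.70 ± 0.29 (SE, limma adjusted p = 0.000851). AHNAK, a giant scaffold protein, had Torin means of 43.0, 49.4, 42.9 and 54.2 in TFEB KO, WT, TFE3 KO and DKO and CTRL means of 22.2, 12.4, 3.71 and 6.89, with differences of -2.31 against TFE3 KO (limma adjusted p = 2.02e-09) and -1.88 against DKO (5.13e-07). CRYAB, a small heat shock protein, was at 49.4 ± 2.95 in TFEB KO CTRL and 65.4 ± 4.28 in Torin (n = 3), and at 3.49 ± 0.513 and 23.5 ± 0.170 in TFE3 KO (n = 3), a difference of -2.06 (4.24e-08). ANKRD1 rose more in TFEB KO than in WT, by 1.49 ± 0.31 (SE, limma adjusted p = 0.00727), with Torin means of 139 and 42.3. In TFE3 KO and DKO, ANKRD1 was at means of 0.481 and 0.974 in CTRL and of 3.93 and 8.23 in Torin, and the test of the difference made no call (limma adjusted p = 0.0744 and 0.57). FAM133A, a cancer-testis antigen, was at 9.53 ± 3.57 in TFEB KO CTRL and 19.7 ± 0.867 in Torin (n = 3), and at means of 4.11 and 2.48 in WT, a difference of 1.55 (0.0127). In TFE3 KO and DKO the means of FAM133A also rose, from 7.84 to 16.15 and from 6.14 to 12.43. The test of the difference made no call against either (limma adjusted p = 0.924 and 0.887).

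**Figure D5:**
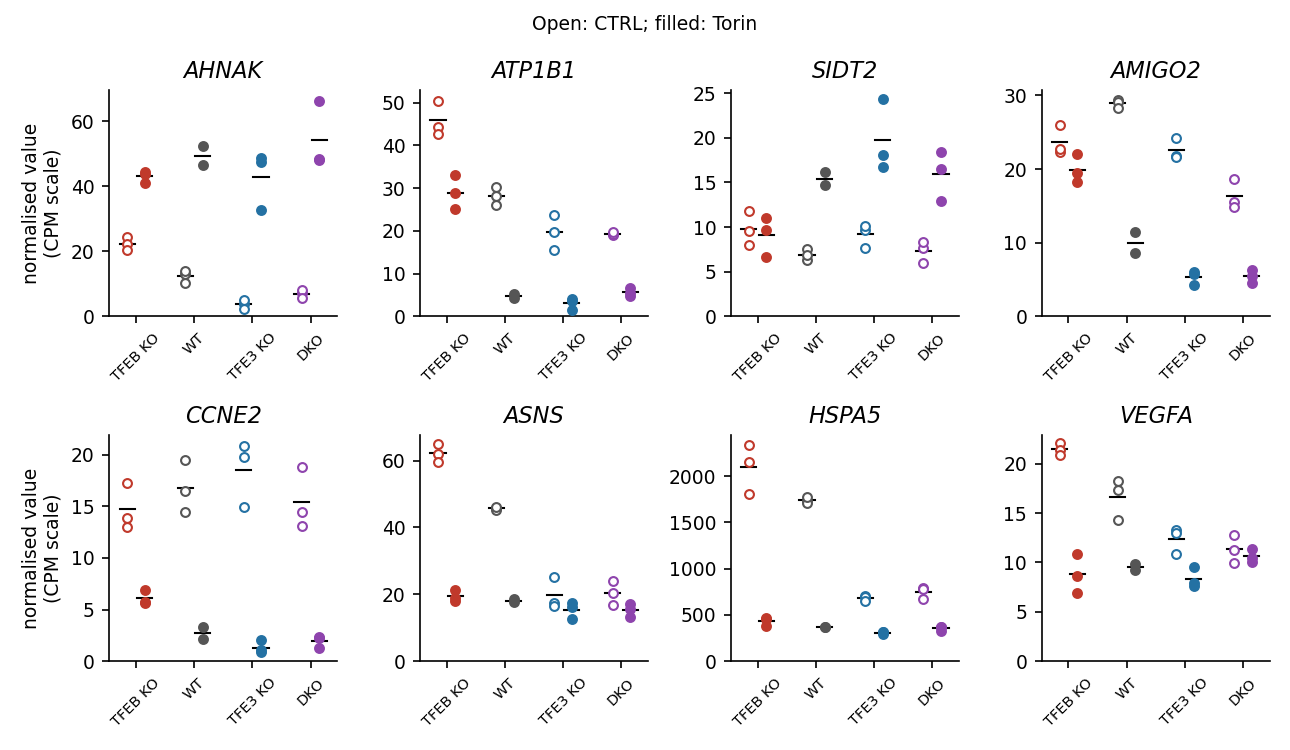
Normalised values (CPM scale, linear axes from 0) of 8 genes in CTRL (open) and Torin (filled) libraries of TFEB KO, WT, TFE3 KO and DKO cells, 1 point per library with bars at group means. SIDT2 and AMIGO2 stay near their CTRL level in TFEB KO cells and separate in the other genotypes, whereas HSPA5, ASNS and AHNAK differ between genotypes mainly without Torin.

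The plot of these 8 genes shows both kinds of difference, those in the Torin level (SIDT2, AMIGO2 and CCNE2) and those in the CTRL level (AHNAK, ASNS, HSPA5 and VEGFA), while ATP1B1 was higher in TFEB KO than in the other genotypes with and without Torin.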

How the data were processed

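Polyadenylated RNA of 501mel cells was sequenced from 3′ ends (QuantSeq Forward) in 27 libraries. Per the study's methods and the submitters' processing notes, reads were checked with FastQC 0.11.9, trimmed with cutadapt 2.10, mapped to hg38 with STAR 2.7.8a and normalised with edgeR. What the authors deposited is a normalised signal for each symbol, in effect CPM scaled by 1 factor in each library. The counter, the factor and the filter are not given in the sources used here. Within 0.01 read up to 100 reads, and in proportion above, 100% of a library's values were whole multiples of the value of 1 read, so reads were recovered by division for edgeR and DESeq2 as alternatives. Floors of 3 reads cover counting error only.

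From 13523 rows 64 ERCC spike-ins were left out. Genes at 1 or more in at least 3 libraries (12991, with 468 left out) were fitted on log2(value + 1) with limma 3.58.1 in R 4.3.3, with 1 mean per group over 25 libraries, and tested with trend and robust moderation. The added 1 draws the changes of low genes towards 0. p-values were 2-sided and Benjamini-Hochberg adjusted per comparison, and a call needed both an adjusted p below 0.05 and a log2 change of 1 or more in size. The identical column under 2 labels was left out. The fit was tested on simulated data. Other settings tried were 0.1 as pseudocount, no filter, a minimum of 5, median-of-ratios scaling, edgeR 4.0.16, DESeq2 1.42.0, the replicate number as a block, fewer groups in the fit and each replicate left out. Keeping the column under 2 labels as WT Torin was a further setting. Keeping the spike-ins was tried after seeing the data.

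The genes named are TFEB, TFE3 and MITF, the 6 highest and 6 lowest called genes with a mean of at least 5 and no overlap, up to 3 called members of each list (or the most changed member), and the 3 highest and 3 lowest of each difference. List members outside this rule, and genes of small counts, were named after their values were seen. The genes and lists were chosen with earlier results of these data known. Of 13459 genes 12286 were placed by symbol in GENCODE, and promoters were taken from RefSeq for 10672 genes. Some genes are not reported here.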

Additional observations from a re-analysis of the deposited data

Results flagged for a closer look

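These results stand out because the Torin response of TFEB KO cells differed from that of another genotype in the test of the difference itself (limma, adjusted p under 0.05 and a log2 difference of at least 1), and because the spike-in rows changed. Positive values mean a higher log2 fold change in TFEB KO.

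Against all 3 genotypes (WT, TFE3 KO and DKO in that order) AMIGO2 differed by 1.22, 1.67 and 1.20, NAT16 by -1.04, -1.53 and -1.08, SIDT2 by -1.16, -1.12 and -1.14, and SNORD13 by -1.0, -1.49 and -1.29. Against WT ATP1B1 differed by 1.70, OVAAL, a long noncoding RNA, by 1.6, MTHFD2P1, a pseudogene whose reads may be shared with its parent gene, by 1.57, OLFML2A by -1.57, FAM117A by -1.53 and NLGN2, a synaptic adhesion protein, by -1.52. Of 21 alternatives the call against WT was lost in 14 for FAM117A, 11 for SNORD13, 10 for SIDT2, 8 for NAT16, 4 for OLFML2A, 3 for OVAAL, 2 for NLGN2 and 1 each for AMIGO2, ATP1B1 and MTHFD2P1. Against TFE3 KO SHISA2 differed by 2.46, CCNE2 by 1.96, FAM111B by 1.91, AHNAK by -2.31, CRYAB by -2.06 and RORB, a nuclear receptor, by -1.81. Against DKO FAM111B differed by 1.57, AP1S3, an adaptor complex subunit, by 1.5, E2F2 by 1.44, AHNAK by -1.88, SAMD5 by -1.74 and FBXO2, a ubiquitin ligase subunit, by -1.66, a call lost in 1 of 21 alternatives.

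The table also held 64 rows of ERCC spike-in RNAs, which are added to a sample and are not made by the cells. Of 61 tested when they were kept in the fit, 13 were called higher and 13 lower with Torin in TFEB KO. Among the 44 with a mean of at least 5 the log2 fold change ran from -1.88 to 1.61 with Torin in TFEB KO and from -0.13 to 0.79 with HBSS in WT, and 42 had the same sign with Torin in all 4 genotypes. Spike-ins took 3.33% to 3.83% of the reads in TFEB KO CTRL and 3.803% to 4.68% in TFEB KO Torin. Which spike-in mix each library received is not given in the sources used here, and its part in the result was not tested. Any difference in preparation that goes with the spike-ins would run with Torin in all 4 genotypes and cannot be told apart from it.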

How the results depend on the processing

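For the result TFEB KO: Torin minus CTRL, genes called, 629 became 944 with a pseudocount of 0.1 and 966 with edgeR on recovered reads, while the other settings stayed within 1.5 times. Leaving out each TFEB KO library gave 632 to 717 calls. The 27 calls of the difference from WT ranged from 14 to 41 when libraries were left out, being 14 without TFEB KO CTRL replicate 1 or Torin replicate 3, 16 without Torin replicate 1, 15 without WT Torin replicate 3 and 41 without TFEB KO CTRL replicate 3, and fell to 1 when the column under both labels was kept as WT Torin. The differences from TFE3 KO (180 calls) and DKO (116 calls) ranged over 152 to 207 and 91 to 140 with libraries left out. The cause was not tested. The column under both labels held 12917 genes with a read, against 12895 and 12901 in the other WT HBSS libraries. The other WT Torin libraries held 13188 and 13181. Its spike-in share of 4.45% stood beside 3.83% and 3.85% in those HBSS libraries and 4.79% and 4.43% in those Torin libraries. Which label is right was not tested, so keeping it as WT Torin may place an HBSS library in that group. The Torin calls of FAM133A, GARS, MANBA, NAT16, OLFML2A, PYCR1, SLC27A1, SLC27A4, TFAP2A and XRCC3 in TFEB KO were lost with at least 1 library left out. This was looked at for only part of the genes named, and calls such as those of PSAT1 and CEBPG were not among them.

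The directions of 3 genes and 3 list medians turned. TFEB with Torin in TFEB KO was -0.35 without Torin replicate 1. SHISA2 was 0.0049 with median-of-ratios scaling, 0.02 without CTRL replicate 2 and 0.19 without CTRL replicate 3 (range -0.3087 to 0.19 with libraries left out). SIDT2 was 0.03 without CTRL replicate 2 and 0.0847 without Torin replicate 2 (range -0.2448 to 0.0847). Among the list medians, log2 fold change of Torin in TFEB KO: p53 and its targets became 0.0085 with median-of-ratios scaling. With a minimum value of 5 the list medians, log2 fold change of Torin in TFEB KO: BCL2 family became -0.0314, and the list medians, log2 fold change of Torin in TFEB KO: interferon-stimulated and MHC class I genes became -0.0173. Response sizes differed by -0.32 to -0.28 and 0.32 to 0.38 with libraries left out and by -0.44, -0.37, 0.42 and 0.37 with a pseudocount of 0.1.

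The replicate block gave 629 calls with Torin, 29 for the result TFEB KO minus WT Torin response, genes called, 177 for TFEB KO minus TFE3 KO Torin response, genes called, and 122 for TFEB KO minus DKO Torin response, genes called. TFEB KO CTRL and Torin libraries of the same number correlated by 0.034, 0.028 and 0.128 in their deviations from group means, so the numbers were not taken as pairs.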
